A study of Homo sapiens with 32 samples.

Results

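The response of transcription start sites to dihydrotestosterone (DHT) was compared between the bicalutamide-resistant prostate cancer line BicR and LNCaP cells. The comparison rested on 8 of the 32 libraries of the series, chosen by their labels: cells given DHT and cells given the ethanol vehicle, in both lines, at 6 h and at 24 h. Each line, treatment and hour was represented by 1 library. The assay was cap analysis of gene expression (CAGE) read on a HeliScope sequencer, in which each tag marks the capped 5′ end of an RNA and so a position where transcription started.

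LNCaP is an androgen-responsive line established from a lymph node metastasis of prostate cancer. The labels give BicR by that name alone, and neither its derivation nor the number of clones behind it. Both lines were grown in RPMI medium with fetal bovine serum and were moved for some days to phenol-red-free medium with charcoal-stripped serum, which removes steroids, so the vehicle libraries too came from steroid-depleted cells. DHT was given at 10 nM per the sample labels. Other libraries of the same table, from both lines, were given bicalutamide at 1 µM, alone or with DHT, or were untreated at 0 h. A separate table of 14 LNCaP libraries followed the synthetic androgen R1881, with 2 replicates at each time. The R1881 dose is 1 nM in the sample labels, whereas the shared treatment protocol names 10 nM. The deposited tables give start sites by hg19 position with no gene name, so sites are called by chromosome, position and strand, no gene annotation of that build was used here, and the labelled cell types were not set against marker genes.

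DHT is the most potent natural androgen. It binds the androgen receptor, a nuclear receptor that then moves to the nucleus, binds enhancers and promoters, and raises or lowers transcription of its target genes. Bicalutamide competes with androgens for the receptor, and prostate cancers treated with it often regain growth. In LNCaP cells the receptor carries a mutation in its ligand-binding domain, and androgen raises secretory and lipid metabolism genes.

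The 8 libraries held 5742167 to 7753336 tags over 13294 start sites, and 3 tags corresponded to 0.326 to 0.445 RPM (reads scaled to a common library total), the level below which a site in a library was close to its counting limit. The tags listed were 78.6 to 86.1% of the library total implied by the RPM values, with the lowest share in the BicR ethanol library at 6 h. The 6 h BicR library given DHT with bicalutamide stood apart from its line. It held RPM values above 2 at 220 of 221 sites that were under 1 RPM in 15 or more of the 18 libraries of the table. That library is none of the 8 and of neither group compared. It entered the fit through the scaling, the filter, the 24 h term of BicR and the shared estimate of the spread.

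The first question was whether DHT acted differently on single start sites in the 2 lines. No site passed the test of the difference between the lines. With edgeR's quasi-likelihood test and Benjamini-Hochberg adjustment at 0.05, 0 of 13214 sites (0%) were called, and the smallest adjusted p was 0.153. At an unadjusted p under 0.05, 425 sites were higher in BicR (3.22%) and 329 were lower (2.49%), together 5.71% of the sites tested. The standard error of the difference had a median of 0.247 on the log2 scale. DESeq2 called 4 sites. Without the library that stood apart edgeR called 2, and without the BicR ethanol library at 24 h it called 1, at chromosome 8 position 134309494 on the minus strand with a log2 difference of 2.67 (adjusted p = 0.00156). With all libraries in the fit the value there was 1.70 (adjusted p = 0.748). The design has 1 library per condition, so the 6 h and 24 h libraries stood in for replicates. The p-values therefore weigh the mean effect over the hours against how far treatment effects, those of bicalutamide included, differed between hours. The labels do not say whether libraries came from separate cultures.

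Within each line the number of called sites differed. In LNCaP, 17 sites were called (0.129%), of which DHT raised 16 (0.121% of those tested) and lowered 1 (0.00757%). In BicR 450 were called (3.41%), of which it raised 294 (2.22%) and lowered 156 (1.18%). At an unadjusted p under 0.05 the counts were 736 in LNCaP (5.57%) and 2061 in BicR (15.6%). A site called in BicR and not in LNCaP was not thereby shown to differ, since the difference itself passed at no site. Of the 16 sites raised in LNCaP, 14 were also raised in BicR, which was 87.5% of the LNCaP list and 4.76% of the BicR list. The 1 site lowered in LNCaP was not among the 156 lowered in BicR. The LNCaP count rested on every LNCaP library: 0 or 1 site was called without the ethanol library at 24 h, the ethanol library at 6 h or the DHT library at 24 h, and 2 without the DHT library at 6 h. The BicR count of 450 fell to 171 without BicR DHT at 6 h, 166 without BicR DHT at 24 h and 265 without BicR ethanol at 24 h. Without the library that stood apart the counts were 62 in LNCaP and 756 in BicR. A larger share of responding cells and a larger response per cell cannot be told apart in these bulk libraries.

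Responses spread more widely in BicR. Here and below, a response is log2 of RPM + 0.5 with DHT over the same with ethanol at the same hour, taken over 11679 sites with a mean of at least 10 RPM in 1 or more of the line and treatment pairs. The standard deviation of the response across these sites was 0.299 at 6 h and 0.369 at 24 h in LNCaP, against 0.484 and 0.488 in BicR. A rise of at least 1 was seen at 112 sites at 6 h and 168 at 24 h in LNCaP, and at 310 and 208 sites in BicR. A fall of at least 1 was seen at 18 and 74 sites in LNCaP, and at 148 and 290 in BicR. Falls in BicR thus outnumbered rises at 24 h and were fewer at 6 h. The BicR libraries also varied more among themselves, with a median correlation to the other libraries of their line of 0.954 to 0.964, against 0.975 to 0.983 in LNCaP, and the part of this in the spread was not tested. Across the 11679 sites the responses at the 2 hours correlated at 0.231 in LNCaP and 0.566 in BicR, and the responses of the lines correlated at 0.417 at 6 h and 0.460 at 24 h. These are correlations across sites of the same libraries, and sites are not independent replicates.

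The difference between the lines, the BicR response minus the LNCaP response, varied from hour to hour over the whole table. Its values at 6 h and at 24 h correlated at 0.136 across the 11679 sites. On the RPM scale its median was 0.16 at 6 h and 0.02 at 24 h. With TMM-scaled counts the medians were 0.01 and 0.02, so RPM-scale differences at 6 h should be read against that shift. Sites were therefore grouped by a difference of at least 1 with the same sign at both hours. The rise was larger in BicR at 50 sites in 45 loci (0.428% of the 11679), and the fall was larger in BicR at 26 sites in 24 loci (0.223%). The rise was larger in LNCaP at 1 site (0.00856%), and a larger fall in LNCaP was seen at 0 sites. These groups leave out differences of that size at 1 hour only. The 10 RPM minimum could be met in the BicR DHT pair alone, so a low site could enter through its BicR rise itself. A low site with a BicR fall could likewise enter through the BicR ethanol pair. The same holds for the counts of rises and falls by hour. Taken by hour, the difference was at least 1 at 259 sites at 6 h and 176 at 24 h. It was -1 or lower at 171 and 260 sites, where a smaller rise and a larger fall in BicR both count. With TMM-scaled counts in place of RPM the counts were 46, 37, 3 and 0, and at a minimum of 25 RPM the larger rises in BicR numbered 30. For scale, 8 sites (0.0685%) had a difference of at least 1 at both hours with opposite signs.

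**Figure D1:**
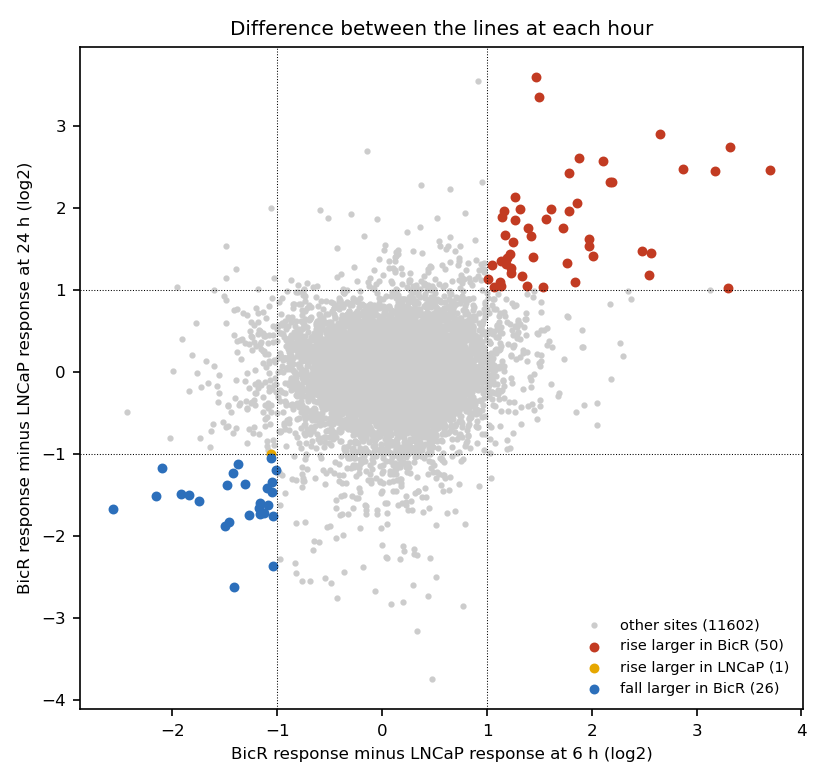
Difference between the DHT responses of the lines (BicR minus LNCaP, log2) at 6 h on the horizontal axis and at 24 h on the vertical axis, 1 point for each of 11679 start sites; dotted lines mark a difference of 1 either way. The 50 red sites (larger rise in BicR) lie at the upper right and the 26 blue sites (larger fall in BicR) at the lower left, while the grey cloud shows little relation between the hours.

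The site with the smallest p of the difference was at chromosome 2 position 10588452 on the minus strand. In LNCaP it had 287 RPM with ethanol and 361 with DHT at 6 h, and 232 and 263 at 24 h. In BicR it had 334 and 1062 at 6 h, and 334 and 854 at 24 h. Both BicR libraries given DHT lay above all of the other 6, and ethanol levels of the lines were close. The log2 difference was 1.18 (95% CI 0.82 to 1.55, adjusted p = 0.153 with edgeR), from a response of 0.30 in LNCaP and 1.49 in BicR. It passed with DESeq2 (adjusted p = 3.88e-06) and in edgeR without the library that stood apart (adjusted p = 0.0356). A site on the opposite strand 389 bp away, at position 10588841, had a log2 difference of 0.86. With R1881 for 48 h in LNCaP, in the other table, the log2 change at position 10588452 was 2.11 (adjusted p = 0.0735).

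At chromosome 1 position 205782325 on the minus strand, LNCaP went from 30.1 to 36.9 RPM at 6 h and from 29.3 to 27.6 at 24 h. BicR went from 18.1 to 74.8 RPM at 6 h and from 17.0 to 55.2 at 24 h. BicR was the lower line with ethanol and the higher line with DHT at both hours. The BicR response minus the LNCaP response was 1.69 (95% CI 0.99 to 2.40, adjusted p = 0.415 with edgeR and 0.0278 with DESeq2). On the same strand 561 bp away, position 205782886 had responses of -0.17 and -0.02 in LNCaP and of 3.53 and 2.44 in BicR at 6 h and 24 h. That position met the 10 RPM minimum only in the BicR DHT pair. The opposite-strand site 152 bp away, at position 205782477, had a log2 difference of 0.44.

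At chromosome 12 position 93964815 on the plus strand, LNCaP had 9.49 RPM with ethanol and 11.0 with DHT at 6 h, and 11.5 and 15.5 at 24 h. BicR had 6.76 and 48.9 at 6 h, and 12.7 and 47.6 at 24 h. The BicR libraries given DHT were again the highest, above 15.5 RPM in all the others. The log2 difference was 1.94 (95% CI 1.06 to 2.82, adjusted p = 0.634 with edgeR).

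A weaker site, at chromosome 15 position 99191767 on the plus strand, had 4.0 and 5.54 RPM at 6 h and 3.79 and 4.08 at 24 h in LNCaP, ethanol first. BicR had 2.47 and 13.9 at 6 h and 1.74 and 9.44 at 24 h. The site met the 10 RPM minimum only in the BicR DHT pair. The untreated 0 h libraries stood at 7.49 RPM in LNCaP and 1.90 in BicR, so the ethanol-treated and the untreated BicR cells were both below LNCaP. The BicR response minus the LNCaP response was 2.09 (95% CI 1.07 to 3.10, adjusted p = 0.634 with edgeR).

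At chromosome 13 position 95868500 on the minus strand the lines differed mainly in the vehicle libraries. LNCaP had 1.48 and 7.49 RPM at 6 h and 1.77 and 12.7 at 24 h, and BicR had 0.130 and 10.5 at 6 h and 0.134 and 21.4 at 24 h, ethanol first. Each BicR ethanol value was a single tag, and the levels with DHT overlapped between the lines. The tag ratio of DHT to ethanol was 5.05 (95% CI 2.59 to 11.0) at 6 h in LNCaP and 80.5 (95% CI 14 to 3222) in BicR, with exact binomial intervals that cover counting error only. DHT raised this site in both lines (adjusted p = 0.0293 in LNCaP and 0.00033 in BicR, edgeR), and the adjusted p of the difference was 0.634.

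**Figure D2:**
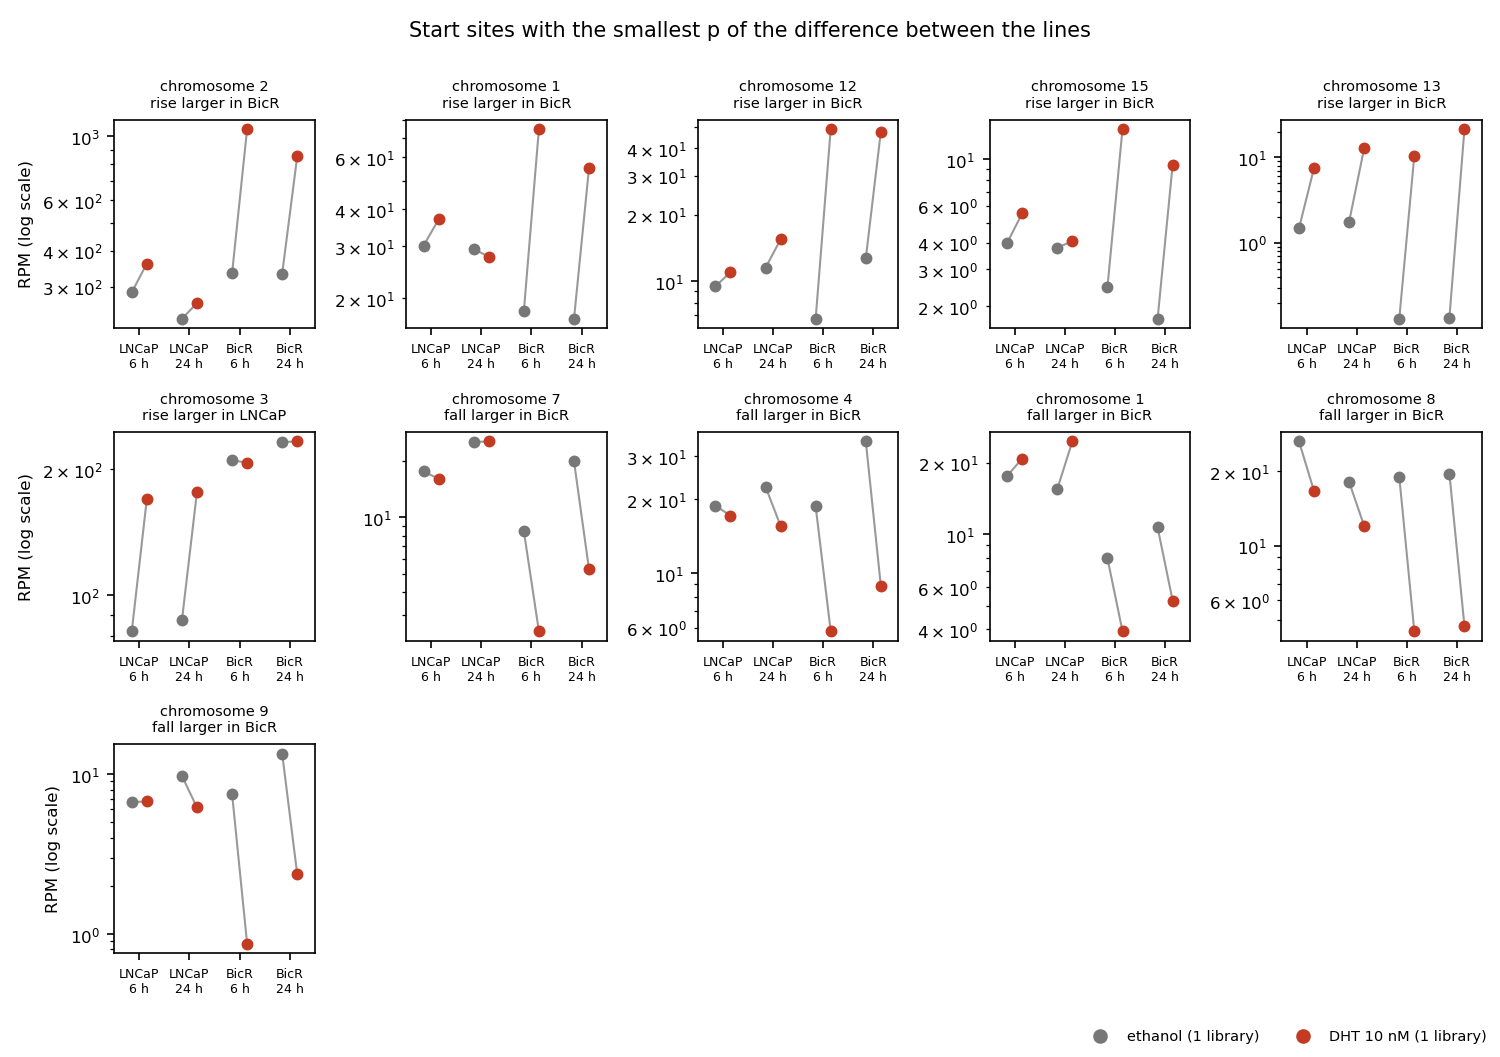
RPM on a log scale at the sites with the smallest p of the difference in each class, with 1 panel per site named by its chromosome; grey points are single ethanol libraries, red points single DHT libraries, and a line joins the pair of the same cell line and hour. In the top row the BicR lines are steeper than those of LNCaP, as on chromosome 2 from 334 to 1062 RPM at 6 h, and on chromosome 3 BicR stays flat; in the panels for falls the BicR pairs drop more.

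As a group, the 50 sites with the larger rise in BicR had a median response of 0.71 in LNCaP and 2.44 in BicR, values that the grouping itself used. In BicR 46 of them were called, and 2 in LNCaP, against 434 and 17 of all 11679 sites. Other libraries, which the grouping did not use, held 39 of the 50 in the R1881 table. At 48 h of R1881 in LNCaP 37 of these were higher and 2 lower than at 0 h, with a median log2 change of 2.76, and 17 were called higher. Over all 7897 sites of at least 10 RPM found in both tables, 3637 were higher and 4260 lower, with a median of -0.07, and 82 were called higher. Before treatment BicR was the higher line at 30 of the 50, with a median log2 difference of 0.20, against 6532 of 11679 sites and 0.06 over all.

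Several sites with a larger rise in BicR lay in 1 stretch of chromosome 1. After the values were seen, sites of the classes above were joined where the next was within 200 kb, and 20 of 77 fell into 8 such stretches. The longest ran from position 205589801 to 205782886 and held 6 class sites on the minus strand among 16 sites of at least 10 RPM. The 6 include close neighbours, such as positions 205649586 and 205649750, and so are not 6 separate loci. Position 205649586 went from 6.38 to 16.7 RPM at 6 h and from 3.29 to 9.90 at 24 h in LNCaP, and from 4.55 to 49.1 and from 5.09 to 46.5 in BicR. Position 205589801, at the end of the stretch, went from 4.60 to 4.34 and from 5.56 to 4.83 RPM in LNCaP, and from 4.81 to 10.9 and from 3.75 to 11.4 in BicR. The DHT-treated BicR libraries were the highest at both positions, and position 205589801 met the 10 RPM minimum only in them.

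The same stretch held a site where the responses of the lines were close. Position 205633975, raised in both lines, had log2 responses of 2.04 and 1.94 in LNCaP and of 2.43 and 2.0 in BicR at 6 h and 24 h. Its log2 difference was 0.14 (95% CI -0.81 to 1.10). Position 205687211 had responses of 0.07 and 0.38 in LNCaP and of 0.20 and 0.17 in BicR.

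The 1 site with a rise larger in LNCaP was at chromosome 3 position 153943621 on the plus strand. LNCaP went from 82.2 to 169.6 RPM at 6 h and from 87.2 to 176 at 24 h, while BicR went from 209.9 to 207 and from 232 to 233. Every BicR library lay above every LNCaP library, with or without DHT, and the untreated libraries had 64.2 RPM in LNCaP and 232 in BicR. The log2 difference was -1.11 (95% CI -1.71 to -0.51, adjusted p = 0.638 with edgeR), and the LNCaP response had an adjusted p of 0.0706. With R1881 at 48 h the site had a log2 change of -0.23 in LNCaP (adjusted p = 0.943). The site is close to the limit of the class, and 2 RPM in place of 0.5 as the pseudocount left 0 such sites.

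A site called in LNCaP, at chromosome 5 position 148206173 on the plus strand, also had the larger response there, although below the limit of the class. LNCaP went from 36.5 to 58.0 RPM at 6 h and from 33.1 to 59.0 at 24 h, and BicR from 39.2 to 42.7 and from 38.0 to 37.3. The ethanol libraries of both lines lay between 33.1 and 39.2 RPM, and the LNCaP DHT libraries lay above all others. The BicR response minus the LNCaP response was -0.78 (95% CI -1.18 to -0.37, adjusted p = 0.634 with edgeR), with an adjusted p of the response of 0.045 in LNCaP and 0.974 in BicR.

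Among falls larger in BicR, chromosome 7 position 134832838 on the plus strand had the smallest p. LNCaP went from 17.6 to 16.1 RPM at 6 h and from 25.3 to 25.5 at 24 h, and BicR from 8.45 to 2.47 and from 19.9 to 5.27. The BicR DHT libraries were the lowest of the 8, and BicR was also the lower line with ethanol. The log2 difference was -1.84 (95% CI -2.56 to -1.13, adjusted p = 0.415 with edgeR). Without the library that stood apart it was -1.86, and it passed (adjusted p = 0.0288). With R1881 at 48 h in LNCaP the log2 change at this site was 1.5 (adjusted p = 0.404), above 0.

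At chromosome 4 position 60496006 on the minus strand LNCaP went from 18.8 to 17.2 and from 22.5 to 15.6 RPM, and BicR from 18.7 to 5.81 and from 34.4 to 8.88, at 6 h and 24 h. The BicR DHT libraries lay below 15.6 RPM, the lowest of the other 6. The BicR response minus the LNCaP response was -1.58 (95% CI -2.23 to -0.94, adjusted p = 0.415 with edgeR), and R1881 at 48 h in LNCaP gave a log2 change of -3.25 at this site (adjusted p = 0.140).

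At chromosome 8 position 88257654 on the plus strand both lines had lower values with DHT, from 26.4 to 16.6 and from 18.1 to 12.0 RPM in LNCaP and from 19.0 to 4.50 and from 19.5 to 4.72 in BicR. The response was called in BicR (adjusted p = 0.00117) and not in LNCaP (adjusted p = 0.67). At chromosome 9 position 107509896 on the minus strand LNCaP held 6.67 and 6.73 RPM at 6 h and 9.73 and 6.19 at 24 h, ethanol first. BicR there went from 7.54 to 0.871 RPM at 6 h and from 13.4 to 2.36 at 24 h, below all other libraries. This chromosome 9 site met the 10 RPM minimum only in the BicR ethanol pair. The log2 differences were -1.50 on chromosome 8 and -2.42 on chromosome 9, both with an adjusted p of 0.634 in edgeR.

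DESeq2 also called the difference at 2 sites outside the classes' named members, given here after their values were seen. At chromosome 1 position 222867775 on the minus strand LNCaP went from 359 to 446 RPM at 6 h and from 550.0 to 452 at 24 h, and BicR from 569 to 329.6 and from 879 to 385. The BicR ethanol libraries were the highest of the 8 and its DHT libraries lay near or within the LNCaP range, with a log2 difference of -1.07 in DESeq2 (adjusted p = 0.00608) and -1.06 in edgeR (adjusted p = 0.415). With R1881 for 48 h in LNCaP, in the other table, the log2 change from 0 h at this site was -7.11 (adjusted p = 0.000485 with edgeR). That time course has no vehicle library at 48 h, so androgen and time cannot be told apart there. At chromosome 4 position 70080464 on the minus strand LNCaP went from 33.5 to 39.6 and from 33.6 to 21.7 RPM, and BicR from 1.95 to 4.94 and from 1.74 to 16.5. Every BicR library lay below every LNCaP library there, and the log2 difference was 2.56 in DESeq2 (adjusted p = 0.0374) and 2.58 in edgeR (adjusted p = 0.634).

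The lines moved in opposite directions at chromosome 1 position 153588799 on the minus strand. LNCaP went from 17.6 to 20.9 RPM at 6 h and from 15.5 to 24.6 at 24 h, and BicR from 7.93 to 3.92 and from 10.7 to 5.27. The LNCaP libraries with DHT were the highest of the 8 and those of BicR the lowest. BicR was lower before treatment too, at 6.64 RPM against 25.6 in the untreated libraries. The response was 0.49 in LNCaP (adjusted p = 0.726) and -1.04 in BicR (adjusted p = 0.0306), and the difference of -1.53 had an adjusted p of 0.415, all with edgeR.

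The 26 sites with the larger fall in BicR were mostly below LNCaP before treatment. Their median response was -0.49 in LNCaP and -1.98 in BicR, and 14 were called in BicR and 0 in LNCaP, against 434 and 17 of all 11679 sites. These values are again tied to the grouping. Before treatment BicR was the higher line at 3 of 26, against 6532 of 11679 over all, with a median log2 difference of -0.69, and at 12 of them BicR was lower by at least 1. At 48 h of R1881, 8 of the 9 sites found in that table were lower than at 0 h and 3 were called lower, against 4260 lower and 56 called lower of 7897 over all. The number of such sites was 9 with a minimum of 25 RPM in place of 10, and also 9 with a pseudocount of 2 RPM.

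Mean responses of opposite sign, each at least 0.5 in size, were found at 11 sites (0.0942%), or 21 with TMM-scaled counts. None of the 11 had a difference of at least 1 at both hours. Of the 11, 0 were called in either line, against 17 in LNCaP and 434 in BicR of all 11679 sites. So few calls over all sites leave little to read from 0 of 11. At chromosome X position 9431357 on the plus strand LNCaP went from 16.8 to 14.7 and from 15.3 to 36.1 RPM, and BicR from 21.2 to 13.9 and from 23.2 to 15.8, at 6 h and 24 h. The rise was seen only in the LNCaP pair at 24 h, and the log2 difference was -1.23 (adjusted p = 0.831 with edgeR). At chromosome 4 position 139163502 on the minus strand LNCaP went from 132 to 95.3 and from 95.7 to 294 RPM, and BicR from 114 to 54.0 and from 252 to 184. The ethanol libraries of BicR there differed between hours, at 114 and 252 RPM, by more than DHT changed either. At chromosome 22 position 31477303 on the plus strand BicR went from 18.2 to 40.1 RPM at 6 h with 19.0 and 17.8 at 24 h, while LNCaP had 18.8 and 16.8 at 6 h and 14.7 and 7.55 at 24 h.

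The question of another hour was answered by description alone, since 1 library per hour gives no replicate for it. A switch of hour was defined as a response of at least 1 at 6 h and under 0.5 at 24 h in one line, with the reverse in the other. It was met at 2 sites (0.0171%), both early in BicR and late in LNCaP, and at 0 sites the other way round. At chromosome 17 position 62207500 on the minus strand LNCaP had 20.5 and 21.8 RPM at 6 h and 19.6 and 44.8 at 24 h, ethanol first. BicR there had 17.7 and 39.1 RPM at 6 h and 31.6 and 36.1 at 24 h. The DHT level was thus similar in the LNCaP library at 24 h and both BicR libraries, and the BicR ethanol level was higher at 24 h than at 6 h. The tag ratio was 2.29 (exact 95% CI 1.89 to 2.78) for LNCaP at 24 h and 2.21 (1.79 to 2.74) for BicR at 6 h.

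At the other such site, chromosome 1 position 78973084 on the plus strand, LNCaP had 18.1 and 18.0 RPM at 6 h and 19.8 and 8.17 at 24 h. BicR had 3.25 and 0.726 RPM at 6 h and 2.54 and 2.08 at 24 h, so the BicR fall at 6 h rested on 25 and 5 tags. All 4 BicR libraries lay below all 4 of LNCaP. Its tag ratio in BicR was 0.224 (exact 95% CI 0.0668 to 0.594) at 6 h and 0.819 (0.387 to 1.70) at 24 h.

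Sites with a rise at both hours in LNCaP nearly all had one at both hours in BicR as well, where a rise or fall by hour means a response past the stated size and no test. A rise of at least 1 at both hours was found at 54 sites in 41 loci in LNCaP (0.462%), and 52 of them met the same limit in BicR. Their median responses at 6 h and 24 h were 1.95 and 1.74 in LNCaP, the line they were chosen in, and 2.75 and 2.67 in BicR. The BicR response was the larger at both hours at 40 of the 54, and the LNCaP response at 2. One of the 2 sites outside the shared set was that on chromosome 3 described above, and the other was at chromosome 2 position 193059641 on the minus strand, with BicR responses of 0.97 and 1.51.

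In the other direction, 147 sites in 124 loci had a rise of at least 1 at both hours in BicR (1.26%). Of these 52 did so at both hours in LNCaP and 92 at 1 or more hours, while 13 (0.111%) stayed under 0.5 in LNCaP at both. Falls at both hours numbered 82 sites in 74 loci in BicR (0.702%) and 1 site in LNCaP. None of the 82 had a fall of at least 1 at both hours in LNCaP, and 34 did at 1 hour or more, of which 32 at 24 h and 2 at 6 h. At 9 (0.0771%) LNCaP had no fall of 0.5 or more at either hour. Median responses of the 82 were -0.38 at 6 h and -0.88 at 24 h in LNCaP, and -1.37 and -1.67 in BicR. The single LNCaP site, at chromosome 17 position 41152046 on the plus strand, went from 22.2 to 6.73 and from 18.5 to 8.29 RPM in LNCaP and from 17.5 to 16.8 and from 15.5 to 9.16 in BicR.

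Falls seen in LNCaP at 24 h alone were often seen in BicR at both hours. A fall of at least 1 at 24 h with no fall of 0.5 or more at 6 h was found at 54 sites in 49 loci in LNCaP (0.462%). Of these, 23 had a fall of at least 1 at both hours in BicR. Median responses at 6 h and 24 h were -0.15 and -1.20 in LNCaP, which the choice fixed, and -1.0 and -1.58 in BicR. Here alone means no response of 0.5 or more the same way at the other hour, so sites that moved the opposite way there are counted. Of 92 sites with a rise at 24 h alone in LNCaP (0.788%), 1 had a rise of at least 1 at both hours in BicR. Their BicR medians were -0.44 and -0.21, and their LNCaP median at 6 h was -0.52. Of 36 sites with a rise at 6 h alone in LNCaP (0.308%), 12 had one at both hours in BicR, and 14 sites had a fall at 6 h alone in LNCaP (0.12%). Those 14 had a median LNCaP response of 1.47 at 24 h, and 8 of them rose by at least 1 there. BicR had 92 rises (0.788%) and 33 falls (0.283%) at 6 h alone, and 19 rises and 127 falls (1.09%) at 24 h alone.

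**Figure D3:**
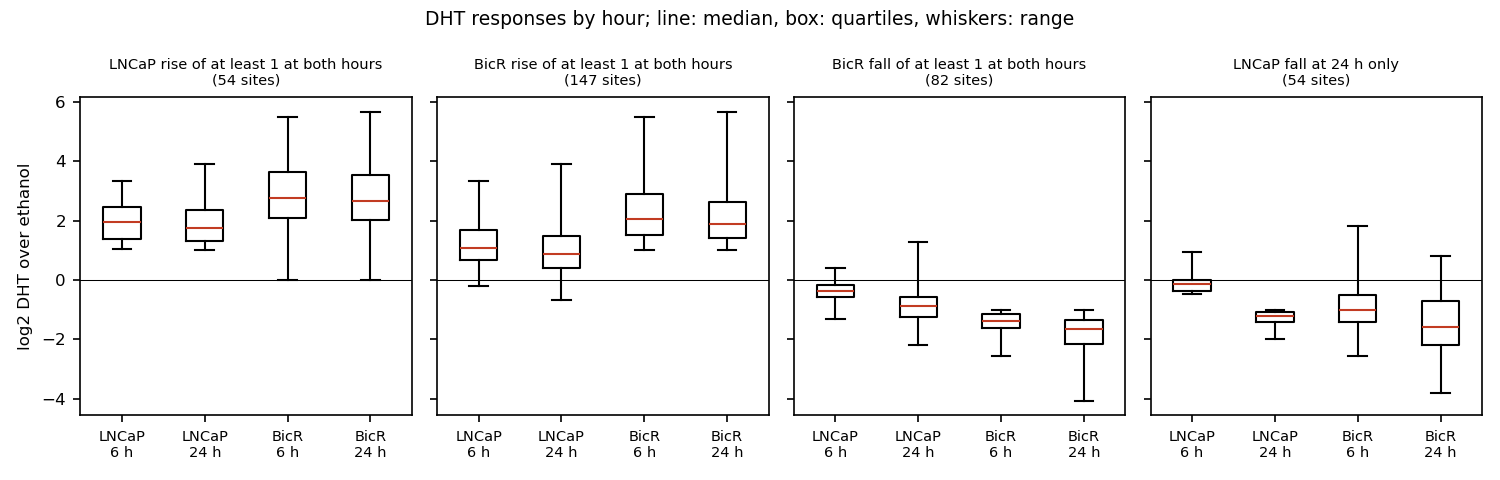
DHT responses (log2 of RPM + 0.5 with DHT over ethanol) by line and hour for 4 groups of sites, with the line at the median, the box at the quartiles and whiskers over the whole range across sites. Sites chosen for a rise at both hours in LNCaP have medians of 2.75 and 2.67 in BicR, and sites chosen for a fall in LNCaP at 24 h have a BicR median of -1.0 already at 6 h.

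Rises at 6 h with smaller responses at 24 h were seen in both lines at the following sites, named after their values were seen. At chromosome 12 position 52445225 on the plus strand LNCaP went from 6.08 to 13.8 RPM at 6 h and from 6.70 to 5.69 at 24 h, and BicR from 6.37 to 82.8 and from 3.88 to 9.99. At chromosome 6 position 134496001 on the minus strand LNCaP went from 1.19 to 8.58 and from 1.01 to 0.866 RPM, and BicR from 0.780 to 67.2 and from 1.74 to 3.61. In both lines the 6 h DHT library was the highest of its line at each site. The log2 differences averaged over the hours were 2.25 (95% CI 0.69 to 3.82) and 2.56 (95% CI -1.12 to 6.24), with adjusted p of 0.823 and 0.886 in edgeR.

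Sites with the smallest p of the response averaged over the lines, which gives both lines equal weight, were then set side by side. A small p of the average does not show a response in both lines: of the 299 sites called higher on average, 16 were called in LNCaP and 233 in BicR. The average was called higher at 299 of 13214 sites (2.26%) and lower at 155 (1.17%), together 3.44%. At chromosome 19 position 51358170 on the plus strand LNCaP went from 434 to 1504 RPM at 6 h and from 357 to 2189.6 at 24 h, and BicR from 102 to 431 and from 102 to 623. LNCaP lay above BicR in each matched pair, and all DHT libraries but the one of BicR at 6 h lay above all ethanol libraries. The responses were 2.27 in LNCaP and 2.32 in BicR, and the log2 difference of 0.04 had a 95% CI of -0.58 to 0.66, which leaves room for a difference of that size either way. A site with the same symmetry on that chromosome, position 51376694 on the plus strand, went from 40.5 to 306 and from 32.2 to 319.8 RPM in LNCaP and from 152 to 1151 and from 138 to 1478 in BicR. There BicR was the higher line in each pair, and the log2 difference was -0.07 (95% CI -1.15 to 1.00).

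Other rises called in both lines had differences on either side of 0. The log2 difference was 0.07 (95% CI -1.01 to 1.15) at chromosome 8 position 23540447 on the minus strand. It was -0.32 (95% CI -1.58 to 0.94) at chromosome 19 position 51379153 on the plus strand. The following rises were larger in BicR by estimate. At chromosome 5 position 113697781 on the plus strand LNCaP went from 14.5 to 45.5 and from 15.2 to 43.4 RPM, and BicR from 10.5 to 65.8 and from 10.3 to 75.2. The BicR DHT libraries were the highest and its ethanol libraries the lowest, and the log2 difference was 1.11 (95% CI 0.38 to 1.85, adjusted p = 0.817 with edgeR). At chromosome 21 position 42880084 on the minus strand LNCaP went from 35.7 to 299.8 and from 38.0 to 245 RPM, and BicR from 15.5 to 246 and from 14.7 to 248. Levels with DHT were close in the lines and levels with ethanol were lower in BicR, for a log2 difference of 1.10 (95% CI -0.11 to 2.30). At chromosome 8 position 80993064 on the minus strand LNCaP went from 5.19 to 41.3 and from 3.41 to 40.8 RPM and BicR from 4.81 to 58.8 and from 2.41 to 86.5, with a log2 difference of 0.94 (95% CI -0.53 to 2.41). At chromosome 6 position 41715134 on the minus strand all 4 ethanol libraries held 2 or 3 tags, and the tag ratio at 24 h was 33.6 (exact 95% CI 11.2 to 165.6) in LNCaP and 143 (39.2 to 1187) in BicR.

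Among the sites called lower on average, chromosome 3 position 3841114 on the plus strand went from 53.1 to 34.3 and from 68.2 to 33.4 RPM in LNCaP and from 89.7 to 34.7 and from 112 to 35.0 in BicR. The DHT levels of the lines lay within 33.4 to 35.0 RPM, while the BicR ethanol libraries lay above those of LNCaP. The log2 difference was -0.77 (95% CI -1.18 to -0.35, adjusted p = 0.638 with edgeR). At chromosome 2 position 172291281 on the minus strand LNCaP went from 21.5 to 11.4 and from 22.9 to 8.41 RPM and BicR from 19.6 to 8.57 and from 23.7 to 6.38, with a log2 difference of -0.46 (95% CI -1.10 to 0.18). At chromosome 11 position 85522183 on the minus strand BicR fell from 26.5 to 7.55 and from 34.7 to 10.7 RPM, and LNCaP went from 13.0 to 9.34 and from 19.8 to 11.3. At chromosome 20 position 12989619 on the plus strand BicR went from 40.0 to 12.8 and from 44.0 to 17.4 RPM, and LNCaP from 28.9 to 24.1 and from 39.1 to 20.2. The last 2 sites had log2 differences of -1.16 and -0.96. All 4 responses passed in BicR and none in LNCaP, where edgeR's adjusted p was 0.0551 on chromosome 3, 0.0683 on chromosome 2 and 0.609 on chromosomes 11 and 20.

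**Figure D4:**
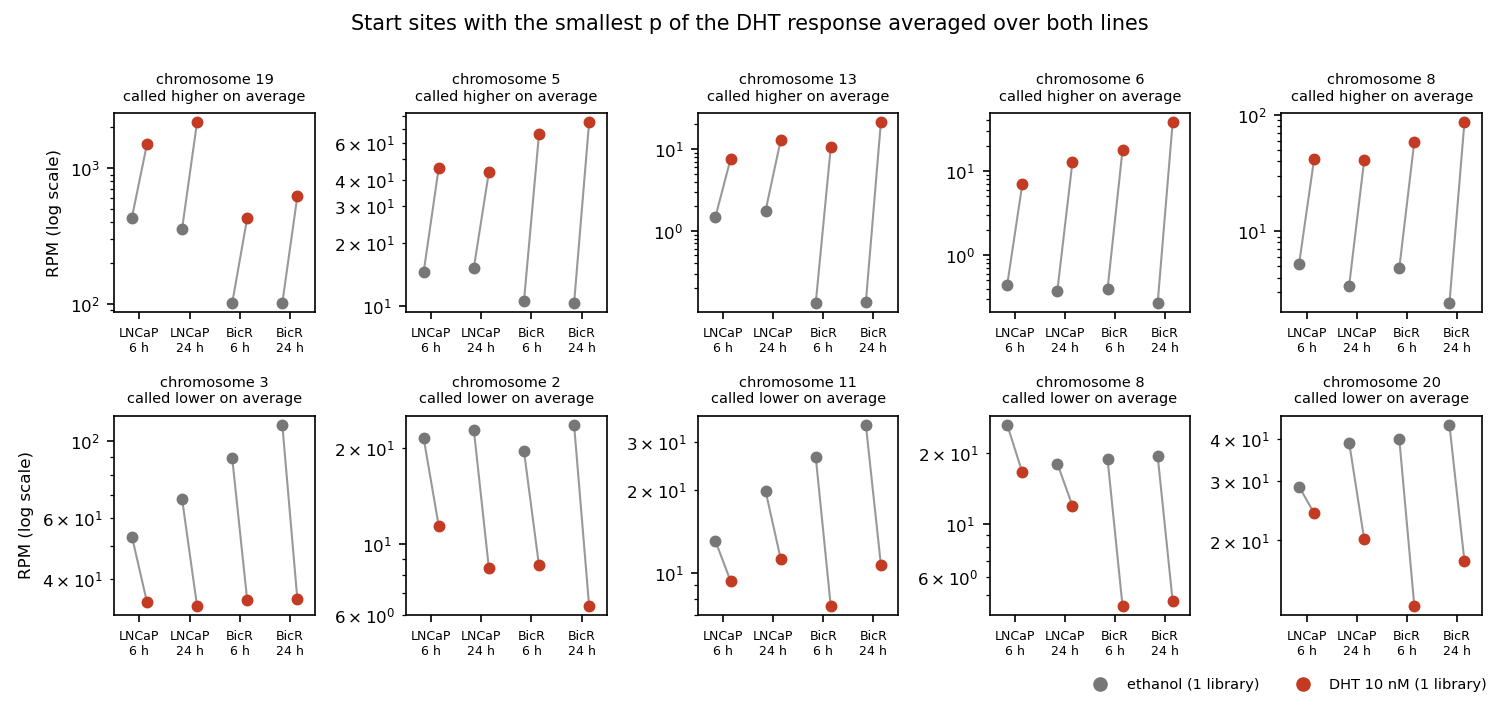
RPM on a log scale at the sites with the smallest p of the DHT response averaged over both lines, rises in the top row and falls in the bottom row, with single ethanol libraries in grey, single DHT libraries in red and a line joining each pair. On chromosome 19 the lines rise in parallel at different levels, and on chromosome 3 the DHT libraries of both lines end between 33.4 and 35.0 RPM.

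Over the 299 sites called higher on average, the median response was 0.67 in LNCaP and 1.27 in BicR, with a median difference of 0.56, and the difference was above 0 at 260 and below 0 at 39. Over the 155 called lower, the medians were -0.43 and -0.93, with a median difference of -0.56, and the BicR response was the lower at 145. These medians and counts are tied to the choice of sites. The average holds both responses, and those of BicR spread more widely, so sites could pass mainly through a large BicR response. Over the 16 sites called higher in LNCaP itself, chosen on that line alone, the LNCaP median was 2.65 and the BicR median 2.73, and 10 differences lay above 0 and 6 below. The 294 sites called higher in BicR had a median of 0.56 in LNCaP and were above 0 there at 278. The number called on average was 186 without LNCaP DHT at 24 h, 213 without LNCaP ethanol at 24 h, 263 without BicR DHT at 6 h, 277 without LNCaP ethanol at 6 h and 295 without BicR DHT at 24 h, against 736 without the library that stood apart.

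Sites called in other libraries gave a view not chosen on the DHT libraries. In the R1881 time course of LNCaP, 216 of 15999 sites were called higher at 48 h than at 0 h (1.35%) and 80 lower (0.5%), and 97 and 57 of them were tested in the DHT table. This fit left out the pairing of same-numbered replicates. The 97 rising sites had a median edgeR response of 0.68 in LNCaP and 1.05 in BicR, and 3 were called higher in LNCaP and 48 in BicR, against 13 and 217 of all 8453 sites tested in both tables. Their difference had a median of 0.60 and was above 0 at 69 and below 0 at 28. The 57 falling sites had a median of -0.36 in LNCaP and -1.0 in BicR, with a difference below 0 at 49 and above 0 at 8 and a median of -0.71. Over all 8453 sites the median difference was 0.01, with 4363 above 0. With the replicates paired, the medians lay closer together, at 0.35 in LNCaP and 0.44 in BicR over 360 rising sites. Over 389 falling sites they were -0.18 and -0.36. The R1881 lists were therefore called in LNCaP, yet their median DHT response was the larger in BicR. The rising list was not uniform: the response was above 0 at 93 of the 97 sites in LNCaP and at 78 in BicR. Its lowest difference was -2.56. Of the 57 falling sites, 9 were above 0 in LNCaP and 5 in BicR.

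By hour, the rising R1881 sites had median responses of 0.42 at 6 h and 0.74 at 24 h in LNCaP and of 1.11 and 0.86 in BicR. The falling sites had -0.17 and -0.56 in LNCaP and -0.62 and -1.07 in BicR. In the fit of the time course with the replicate number as a block, the lists were longer and the shift between the lines smaller: the median difference was 0.16 over 360 rising sites and -0.22 over 389 falling ones. It was 0.36 and -0.27 with lists called by DESeq2, over 150 and 78 sites. Without either 0 h replicate of R1881 the call left few rising sites, and the median was 1.21 over 7 of them without replicate 1 and 1.51 over 5 without replicate 2. The sign of the median difference was the same in each of these. The larger BicR median at each hour was not: with the block, the rising sites had medians at 24 h of 0.48 in LNCaP and 0.36 in BicR.

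**Figure D5:**
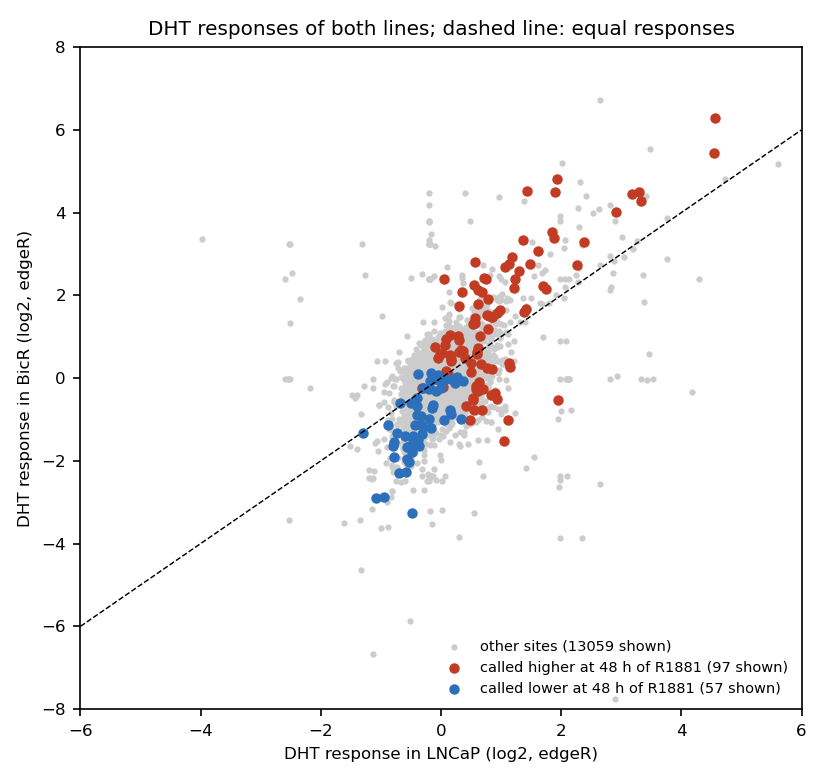
DHT response in LNCaP (horizontal) against that in BicR (vertical), both as log2 values fitted by edgeR, 1 point per start site, with the dashed line at equal responses; 1 site lies outside the axes. Sites called higher at 48 h of R1881 in LNCaP are red, with medians of 0.68 in LNCaP and 1.05 in BicR, and those called lower are blue, with medians of -0.36 and -1.0. Both lists come from the fit without the replicate block, and the medians lay closer together with it.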

How the data were processed

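Per the file headers, the deposited tables give raw tag counts and RPM values, and the counts are whole numbers per site. In each library the deposited RPM values are the counts times 1 factor. Per the submitters' processing notes the build was hg19, and the aligner and site caller are not given in the sources used here.

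Counts were tested in R 4.3.3 with edgeR 4.0.16 (TMM, filterByExpr with a minimum count of 10, quasi-likelihood F test, Benjamini-Hochberg over 13214 sites). The fit took the 16 treated libraries, a coefficient per line and treatment and a 24 h term per line, which left 6 residual degrees of freedom. Confidence intervals of differences come from this fit. Responses by hour used log2(RPM + 0.5) and had no test. A log2 change on that scale understates low sites. Intervals of tag ratios are exact binomial and cover counting error only. Sites on the same strand within 10000 bp formed a locus. Scripts were tested on simulated data.

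Named were, per class, up to 5 sites with the smallest p of the difference, at most 1 per locus (3 for opposite directions, up to 3 each way for hours), and 5 each way for the averaged response. The sites called under an alternative, some of those called in LNCaP and some in the chromosome 1 stretch were added after their values were seen. Members and lists were chosen with earlier results of these data known. Gene lists and cell type markers could not be computed, since no given table names sites on hg19.

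Alternatives included RLE factors, other library totals, filters, time terms, DESeq2 1.42.0, sums over loci and each library left out. One, leaving out all 3 libraries with tags at near-empty sites, was chosen after seeing the data. In the R1881 table same-numbered replicates deviated together in 21 of 21 pairs of times (r 0.172 to 0.648, median 0.386, over 9911 sites), so the numbers pair the samples, and the block is given beside the R1881 lists. Other R1881 values and calls, for single sites and classes, come from the fit without the block.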

Additional observations from a re-analysis of the deposited data

Results flagged for a closer look

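At chromosome 1 position 153588799 on the minus strand both LNCaP pairs moved up with DHT and both BicR pairs moved down, which is why it is listed here. The difference between the lines was -1.53 on the log2 scale. It was tested with edgeR and did not pass (adjusted p = 0.415).

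The 6 h BicR library given DHT with bicalutamide, which no comparison above uses as a group, had a median of 18.6 RPM over 221 near-empty sites. These were under 1 RPM in 15 or more of the 18 libraries. At 6 h, the LNCaP library given bicalutamide alone held over 2 RPM at 81 of them, and that given DHT with bicalutamide at 20. Among the 8 libraries compared, the BicR ethanol library at 6 h held over 2 RPM at 1 of these sites and the other 7 at 0.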

How the results depend on the processing

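The count of sites with a called difference between the lines was 0 under RLE factors, RPM totals, no filter, a 10 RPM filter, the 8 libraries alone, no time term, 1 time term, sums over loci, without near-empty sites and without the 3 libraries with tags at them. It was 2 without the library that stood apart, 4 with DESeq2 and 0 to 1 with each library left out. For LNCaP, the 17 called sites became 62 without the library that stood apart, 5 with no time term, 11 with 1 time term, 54 with DESeq2, 10 loci, and 0 to 16 with each library left out. For BicR, 450 became 756, 179 with no time term, and 166 to 395. For the average, 454 became 736, 205 with no time term, and 186 to 470. Larger rises in BicR numbered 30 at a minimum of 25 RPM. Larger rises in LNCaP numbered 2 with a pseudocount of 0.1 RPM, 0 with 2 RPM and 3 with TMM-scaled counts. Larger falls in BicR numbered 9 with 2 RPM and 9 at 25 RPM. The median difference of the rising R1881 list was 0.16 with the replicate block, 0.36 with DESeq2 and 0.77 to 1.51 with a replicate left out (5 to 35 matched sites). That of the falling list was -0.22 with the block, -0.26 for sites called at 72 h, -0.27 with DESeq2 and -1.05 to -0.92 with a replicate left out (5 to 13 matched sites). The log2 difference averaged over the hours turned sign at both sites of the switched hour. By the definition of a switch, the lines differed in opposite directions at the 2 hours there. The difference was -1.61 at 6 h and 0.99 at 24 h on chromosome 1, and 1.03 and -0.98 on chromosome 17. At chromosome 1 position 78973084 the range of the average with each library left out was -1.84 to 0.446, above 0 without LNCaP DHT at 6 h (0.112) or BicR DHT at 6 h. At chromosome 17 position 62207500 it was 0.0399 with RPM totals and -0.567 to 0.423 with each library left out. The cause was not tested, and a change of sign of this average is no test of the switch of hour. Sites of a few RPM rest on few tags, and 1 library per hour limits every statement about timing.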
